A study of Homo sapiens with 15 samples.

Results

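Malignant human breast cells treated with the PI3K inhibitor LY294002 were set beside the same cells treated with metalloproteinase inhibitors. A gene was listed where LY294002 lay at least 1 log2 unit (2-fold) outside both protease inhibitor values. Of 8671 genes, 61 were listed: 50 were lower with LY294002 and 11 were higher. Lower genes included the chemokines CXCL1 and CXCL2, immunoproteasome and antigen-processing genes, the lipid-synthesis genes SCD, FADS1, SREBF1, DHCR7 and MSMO1, and the aldo-keto reductases AKR1C1 and AKR1C2. Higher genes included the matricellular genes CCN1 and CCN2 and the ERK-responsive genes EGR1 and DUSP6. The comparison is of 1 sample against 2 samples of different agents, so it has no replicates and no test, and values chosen by the rule are given as a description.

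The cells were of the HMT3522 series, an established human mammary epithelial model in which the T4 line is the malignant derivative of the nonmalignant S1 line. All grew in 3D lrECM, a laminin-rich gel in which nonmalignant cells form acini, and RNA was measured on Affymetrix U133A arrays. The series holds 15 samples in 2 deposited tables, and the 8 samples used here are those of the first table: S1 samples 1 and 2, T4 samples 1 to 3, and 3 T4 samples that the labels call reverted. One reverted sample received GM6001, labelled an MMP inhibitor, one received an agent labelled only as an inhibitor of MMPs and ADAMs, and one received LY294002, labelled a PI3K inhibitor. The labels name no treatment for S1 or T4, and the design text mentions a vehicle without saying which samples had it. The sources used here give no doses or times and do not say whether samples of a line were separate cultures.

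PI3K is a lipid kinase downstream of growth factor receptors and integrins; it activates AKT and mTOR complex signalling, which keep FOXO transcription factors out of the nucleus and promote growth and lipid synthesis through SREBP factors. LY294002 occupies the ATP pocket of PI3K and is known to inhibit other proteins too, among them mTOR and casein kinase CK2. MMPs cut extracellular matrix, and ADAMs such as ADAM17 cut membrane proteins, releasing EGFR ligands such as TGFA that signal through ERK and PI3K. GM6001 binds the catalytic zinc of metalloproteinases. In this cell model, blocking these pathways is known for returning malignant colonies in 3D culture to a more acinus-like form.

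The promoters of 5 listed genes are printed because they hold letters known as binding motifs for pathways to which the listed genes belong. They come from RefSeq (GRCh38.p14) and show the 250 bases before the annotated start of the gene, 5′ to 3′ on the strand of the gene. Capitals mark the motif, and its position is that of its first base counted back from the start site. CXCL2 (chr4:74099196-74099445, minus strand) and CXCL1 (chr4:73869143-73869392, plus strand) hold an NF-kappaB motif at -78 and -79. TAP1 (chr6:32853705-32853954, minus strand) holds an NF-kappaB motif at -72 and overlapping interferon-stimulated response element (ISRE) motifs at -134 and -128. IFI44L (chr1:78620198-78620447, plus strand) holds ISRE motifs at -164 and -73. CCN2 (chr6:131951373-131951622, minus strand) holds TEAD motifs at -169, -104 and -95.
CXCL2: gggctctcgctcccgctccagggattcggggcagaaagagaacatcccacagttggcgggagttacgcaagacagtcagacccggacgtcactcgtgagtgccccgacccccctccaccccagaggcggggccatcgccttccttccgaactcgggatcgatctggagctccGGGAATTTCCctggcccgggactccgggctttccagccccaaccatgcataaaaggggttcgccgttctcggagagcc
CXCL1: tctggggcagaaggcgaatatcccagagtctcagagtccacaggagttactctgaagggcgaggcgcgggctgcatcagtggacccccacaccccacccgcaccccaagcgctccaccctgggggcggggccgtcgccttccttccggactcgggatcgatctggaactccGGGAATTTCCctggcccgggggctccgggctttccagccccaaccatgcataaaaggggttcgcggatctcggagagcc
TAP1: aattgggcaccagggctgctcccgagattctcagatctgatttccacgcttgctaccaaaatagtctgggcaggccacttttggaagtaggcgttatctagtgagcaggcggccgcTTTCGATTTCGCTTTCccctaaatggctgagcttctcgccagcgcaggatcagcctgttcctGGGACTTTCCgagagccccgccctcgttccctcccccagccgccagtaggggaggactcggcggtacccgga
IFI44L: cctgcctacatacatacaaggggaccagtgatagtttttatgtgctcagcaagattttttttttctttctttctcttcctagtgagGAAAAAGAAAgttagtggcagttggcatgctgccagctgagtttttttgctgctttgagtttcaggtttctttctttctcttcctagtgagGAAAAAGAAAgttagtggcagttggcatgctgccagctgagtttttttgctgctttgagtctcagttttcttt
CCN2: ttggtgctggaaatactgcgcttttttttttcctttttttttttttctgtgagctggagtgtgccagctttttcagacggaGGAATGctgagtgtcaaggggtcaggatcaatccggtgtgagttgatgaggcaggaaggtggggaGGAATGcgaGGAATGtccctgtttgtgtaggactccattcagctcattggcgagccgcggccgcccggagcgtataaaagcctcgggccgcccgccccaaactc

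Both strands were searched in the same window of 27305 promoters, of which 44 belonged to the 50 lower genes and 9 to the 11 higher genes. The NF-kappaB motif, GGG and TTTCC around any 2 bases, was present in 5 of the 44 lower genes (CXCL2, STAP2, IL32, CXCL1 and TAP1), or 11.4%, and in 1.73% of all promoters. For the ISRE motif, GAAA and GAAA around any 2 bases, the count was 6 of 44 (SGK1, IFI44L, TAP1, CFB, RTP4 and PSMB10), or 13.6%, and 3.07% of all promoters. These patterns can overlap each other in a promoter, and both were searched for only after the lower genes had been seen. The TEAD motif CATTCC was found in 2 of 9 higher genes (CRIP2 and CCN2), 5 of 44 lower genes and 11.9% of all promoters. The AP-1 motif TGACTCA occurred in 3 lower genes (GPNMB, SFTPD and SERPINB13) and 4.16% of all promoters. The FOXO motif GTAAACA was in none of these windows, against 2.98% of all promoters. The E-box CACGTG was in 1 of them (CALHM2), against 6.49%. The sterol response pattern, TCAC and CCAC around any 1 base, was in none of the listed windows and in 0.875% of all promoters. Over the 7200 promoters of the genes used, the shares were 1.89% for NF-kappaB, 2.625% for ISRE, 9.49% for TEAD and 2.56% for AP-1. They were 2.00% for FOXO, 8.86% for the E-box and 0.875% for the sterol pattern. A match is a match of letters, and no match says only that the letters are not in this window.

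The spread of the table sets how a 1 log2 unit gap reads. S1 samples 1 and 2 differed by 2-fold or more in 15 genes, T4 samples 1 and 2 in 5 genes, and the protease inhibitor samples in 3 genes. LY294002 differed from GM6001 by that much in 70 genes and from the MMP and ADAM inhibitor in 97 genes. T4 sample 3 stood apart, with 348 genes differing 2-fold or more from T4 sample 1 and 417 from T4 sample 2, so values that rest on it are given with and without it. Deposited values ran from 6.21 to 14.3 on the log2 scale, with medians of 7.33 to 7.37 per sample, and no detection calls were used. Values near the lower quartile of the table, 6.90, therefore have no known floor.

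**Figure D1:**
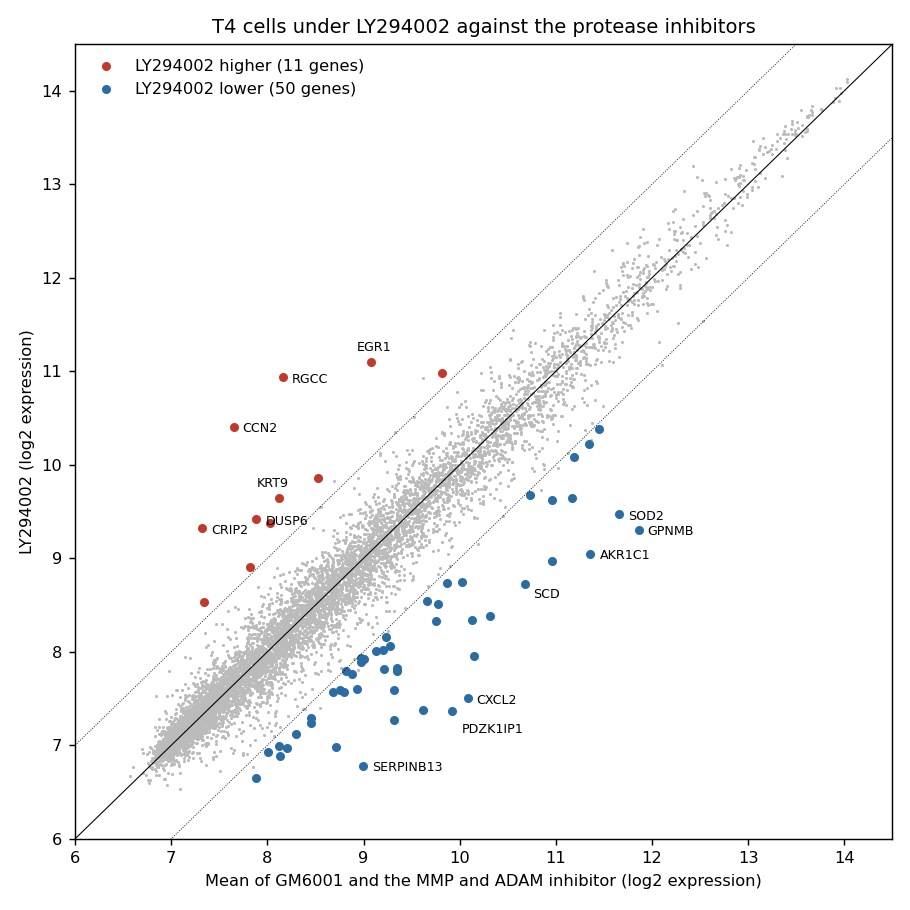
The LY294002 sample (vertical axis, log2 expression) against the mean of the GM6001 and the MMP and ADAM inhibitor samples (horizontal axis, log2 expression), 1 point per gene over 8671 genes. The solid line marks equal values and the dotted lines a difference of 1 log2 unit from the mean; the 50 blue genes lie below and the 11 red genes above both inhibitor values by at least that much, and most other points lie close to the diagonal.

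The lower genes were 0.577% of the genes used and the higher genes 0.127%. Against GM6001 alone 57 genes were lower and 13 higher by the same fold, and against the MMP and ADAM inhibitor alone 77 and 20. The gap is the signed distance from LY294002 to the nearer protease inhibitor value. Its median size was 1.18 over the lower genes and 1.23 over the higher genes, against 0.08 over all genes. Protease inhibitor values of a listed gene lay close together, with a median difference of 0.13 in the lower genes and 0.17 in the higher genes. SOD2 had the widest separation among the lower genes (0.81) and EGR1 among the higher genes (1.38). The median range over the T4 samples was 0.63 in the lower genes and 0.85 in the higher genes, wider than the 0.29 over all genes. Since the rule asked for gaps of at least 1, a listed gene with a T4 range under 1 had to have a larger gap. The gap exceeded the T4 range in 39 of 50 lower and 8 of 11 higher genes. The exceptions were GPNMB, BBOX1, ECM2, SGK1, SLC39A8, CXCL1, SPOCK1, MIOS, C1R, CA12 and SERPINA3 among the lower genes and TGFA, CCN1 and EGR1 among the higher genes. Over T4 samples 1 and 2 alone it exceeded their difference in all 50 and all 11. LY294002 was below all T4 samples in 33 lower genes, inside their range in 16 and above it in 1 (47, 2 and 1 without T4 sample 3). With T4 sample 3 the shares over all genes were 31.8%, 37.6% and 30.6%. Both protease inhibitors were above all T4 samples in 27 of the 50 lower genes and below all of them in 10 (32 and 13 without T4 sample 3). With T4 sample 3 these shares were 22.9% and 23.5% of all genes. The rule chose the genes by these same agent values, so the counts are a description. Listed genes therefore mixed values in which LY294002 departed from T4 and values in which the protease inhibitors did.

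**Figure D2:**
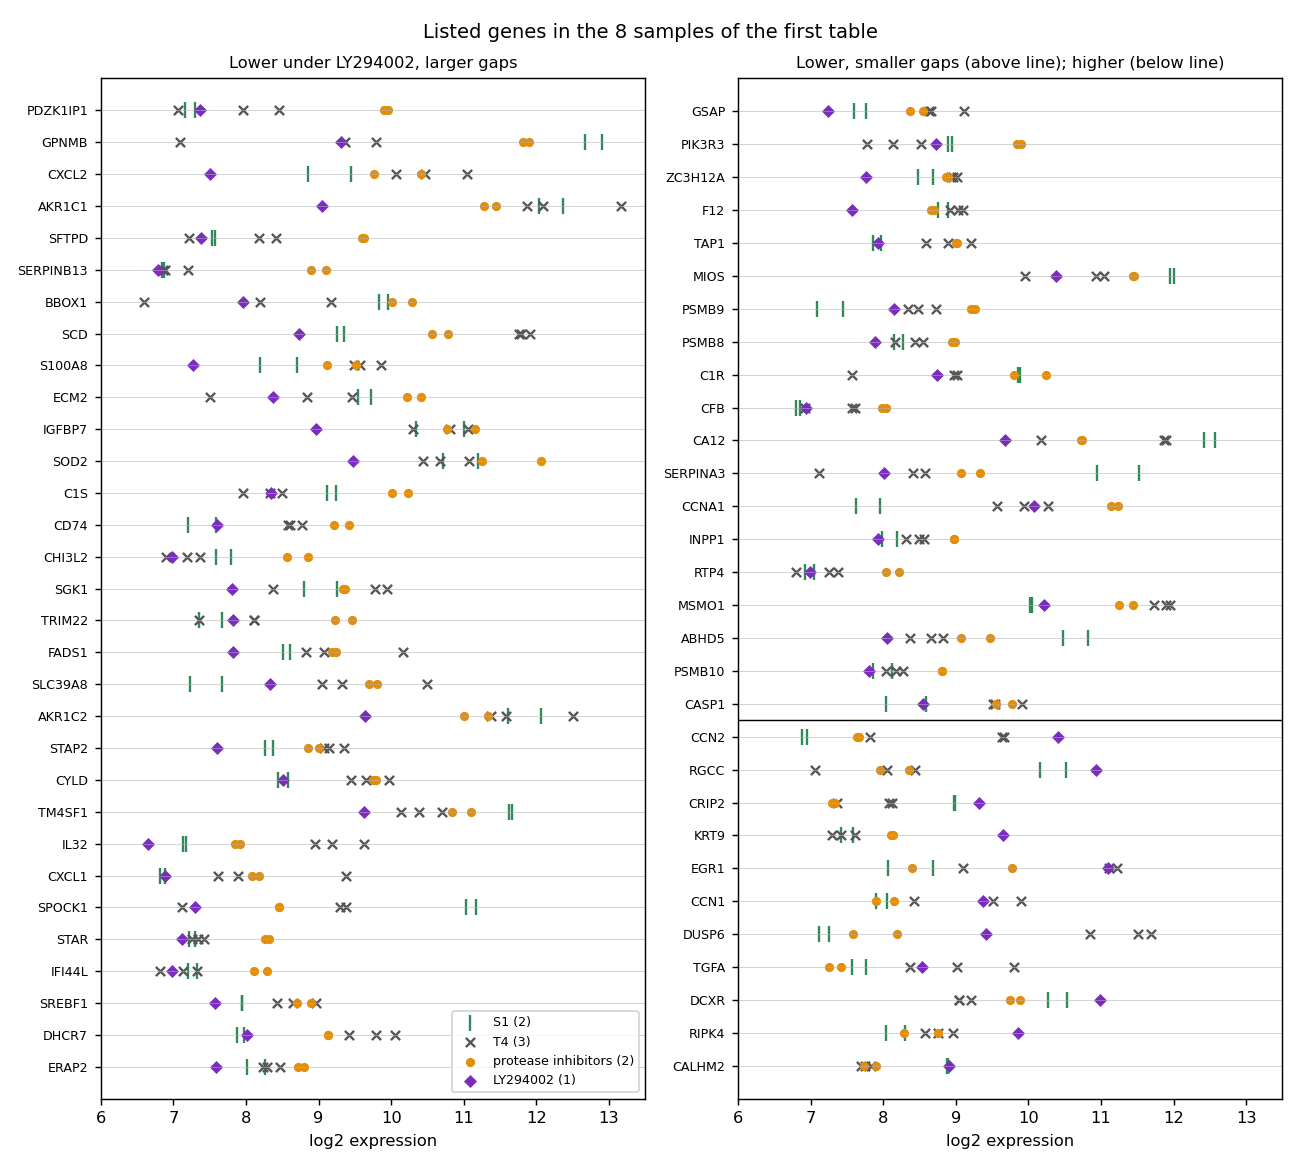
log2 expression (horizontal axis) of the 61 listed genes (1 row each) in the 8 samples of the first table: S1 as green bars, T4 as crosses, protease inhibitors as orange dots and LY294002 as a purple diamond. The orange dots mostly lie close together, the diamond lies to their left in the 50 lower genes and to their right in the 11 higher genes, and crosses are widely spread for genes such as GPNMB and SPOCK1.

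The chemokine genes CXCL1 and CXCL2 and the NF-kappaB target SOD2 were lower with LY294002. CXCL2, which encodes a neutrophil chemokine, read 8.86 and 9.45 in S1, 10.47, 10.06 and 11.05 in T4, 9.76 with GM6001, 10.40 with the MMP and ADAM inhibitor and 7.50 with LY294002. The LY294002 value was the lowest of the 8 and 4.78-fold under the nearer protease inhibitor. CXCL1, its close relative, read 6.89 and 6.81 in S1, 7.89, 7.61 and 9.37 in T4, 8.08 and 8.17 with the protease inhibitors and 6.89 with LY294002. The LY294002 value of CXCL1 equalled an S1 level near the bottom of the scale, and its gap of -1.20 was smaller than the T4 range of 1.76, in which T4 sample 3 was the highest. SOD2, the mitochondrial superoxide dismutase, a target of NF-kappaB and of FOXO factors, read 10.71 and 11.19 in S1, 10.68, 11.08 and 10.44 in T4, 11.25 and 12.06 with the protease inhibitors and 9.47 with LY294002. All S1, T4 and protease inhibitor samples were above LY294002 for SOD2.

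Of 25 genes used from a list of NF-kappaB targets and cytokines, 3 were lower by the fold (CXCL2, SOD2 and CXCL1), against 0.577% of all genes. Of the 25, 9 were lower by at least 0.5 log2 units, a size that 2.84% of all genes reached. None was higher by 0.5, which 1.28% of all genes were. LY294002 lay below both protease inhibitors by any amount in 21 of the 25, against 39.8% of all genes. The other members past 0.5 were TNFAIP3 (-0.91), an inhibitor of NF-kappaB signalling, the neutrophil chemokine CXCL8 (-0.89), TNFAIP6 (-0.87), the cytokine IL1A (-0.81), the chemokine CCL20 (-0.75) and CXCL3 (-0.53). CXCL8 read 7.06 and 7.16 in S1, 10.34, 10.08 and 10.82 in T4, 8.15 and 7.99 with the protease inhibitors and 7.10 with LY294002. Every reverted sample was thus below every T4 sample for CXCL8, and LY294002 was at the S1 level. PTGS2, the inducible cyclooxygenase, did not separate the agents, at 6.83 and 6.70 with the protease inhibitors and 6.93 with LY294002, against 9.63 or more in T4.

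Further listed genes that act in inflammation were lower. IL32, a cytokine gene, read 7.13 and 7.17 in S1, 9.19, 8.95 and 9.62 in T4, 7.92 and 7.85 with the protease inhibitors and 6.65 with LY294002. S100A8, a calcium-binding protein of inflamed epithelium, read 8.19 and 8.70 in S1, 9.49, 9.58 and 9.86 in T4, 9.52 and 9.11 with the protease inhibitors and 7.27 with LY294002. In both genes LY294002 was the lowest sample of the table. CYLD, a deubiquitinase that limits NF-kappaB signalling (gap -1.24), ZC3H12A, an RNase that degrades cytokine transcripts (-1.10), CASP1, the inflammatory caspase (-1.003), and the acute-phase protease inhibitor SERPINA3 (-1.05) were lower as well. ZC3H12A was measured tightly, at 8.96, 9.02 and 8.94 in T4, 8.87 and 8.90 with the protease inhibitors and 7.76 with LY294002.

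The classical complement proteases C1S and C1R and the alternative-pathway factor CFB were lower. C1S read 9.12 and 9.23 in S1, 8.49, 8.33 and 7.96 in T4, 10.23 and 10.02 with the protease inhibitors and 8.34 with LY294002. The protease inhibitor samples were the highest of the table for C1S, and LY294002 lay among the T4 samples. CFB read 6.80 and 6.85 in S1, 7.57, 7.61 and 6.92 in T4, 8.03 and 7.98 with the protease inhibitors and 6.93 with LY294002. The protease inhibitors were highest for CFB too, but S1 was the lowest group, below T4 and LY294002. Of 11 genes used from a complement list chosen after values were seen, these 3 passed the fold, against 0.577% of all genes. In 7 of the 11 LY294002 lay above both protease inhibitors, against 38.9% of all genes. Among the 7 were CLU (0.51) and the regulators CD55 (0.32) and CD59 (0.24).

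Several interferon-response and antigen-processing genes passed the fold, all of them lower with LY294002. TAP1, the peptide transporter of the endoplasmic reticulum, read 7.86 and 7.96 in S1, 8.89, 9.21 and 8.58 in T4, 8.997 and 9.019 with the protease inhibitors and 7.92 with LY294002. PSMB9, a catalytic subunit of the immunoproteasome, read 7.09 and 7.44 in S1, 8.48, 8.73 and 8.34 in T4, 9.26 and 9.22 with the protease inhibitors and 8.15 with LY294002. LY294002 fell within the S1 range for TAP1 and between S1 and T4 for PSMB9. The other catalytic subunits were placed alike, PSMB8 at 8.99 and 8.95 with the protease inhibitors and 7.89 with LY294002, and PSMB10 at 8.81 and 8.81 and 7.80. CD74, the invariant chain of MHC class II, read 7.58 and 7.20 in S1, 8.58, 8.77 and 8.61 in T4, 9.21 and 9.41 with the protease inhibitors and 7.60 with LY294002. CD74 thus separated all 3 kinds of T4 sample, with the protease inhibitors above T4 and LY294002 below it. ERAP2, which trims peptides for MHC class I, had a gap of -1.12.

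In a list of interferon-response and HLA class I genes, 4 of 33 passed the fold (IFI44L, TAP1, PSMB9 and PSMB8), 9 were lower by at least 0.5 log2 units and 30 were below both protease inhibitors by any amount, with none above both. The shares over all genes were 0.577%, 2.84% and 39.8%. The list median of LY294002 minus the mean of the protease inhibitors was -0.44, against 0.00 over all genes. IFI44L, an interferon-induced gene, read 7.32 and 7.20 in S1, 7.13, 7.32 and 6.81 in T4, 8.11 and 8.29 with the protease inhibitors and 6.97 with LY294002. Its protease inhibitor samples stood above all others, and LY294002 stayed among the T4 samples. The transcription factor IRF1 had a gap of -0.94, the classical class I genes HLA-B and HLA-C gaps of -0.82 and -0.65, IFIT3 -0.68 and ISG15 -0.55. HLA genes resemble each other in sequence, so their probe sets may share signal. HLA-B read 8.74 and 8.85 in S1, 11.20, 11.46 and 10.79 in T4, 11.53 and 11.45 with the protease inhibitors and 10.63 with LY294002. That value was close to T4 sample 3 and far above S1. The interferon-induced genes TRIM22 (-1.41) and RTP4 (-1.04) were in no list and also passed the fold.

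On an antigen-processing and MHC class II list, also chosen after values were seen, 6 of 20 genes passed the fold and 17 lay below both protease inhibitors, against 0.577% and 39.8% of all genes. Members just short of the fold were the proteasome activator subunits PSME2 (-0.98) and PSME1 (-0.69) and the tapasin gene TAPBP (-0.72). Of the markers of leukocytes, which also use these genes, PTPRC ranged from 6.63 to 6.90 and CD3E from 6.71 to 6.95 over the 8 samples. CD14 read 7.23 and 7.06 in S1, 7.61, 7.61 and 8.77 in T4, 7.91 and 7.87 with the protease inhibitors and 7.35 with LY294002. The summed log2 level of the 3 measured of 4 leukocyte markers was 21.5 and 21.3 with the protease inhibitors, 21.0 with LY294002, 20.8 to 21.1 in S1 and 21.1 to 22.2 in T4. CD14 moved with the inflammatory genes, and its part in these gaps was not tested. In bulk RNA, fewer cells of a type and less RNA per cell cannot be told apart.

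Lipid-synthesis genes formed the lists with the lowest medians. SCD, the stearoyl-CoA desaturase, read 9.35 and 9.26 in S1, 11.76, 11.79 and 11.91 in T4, 10.78 and 10.57 with the protease inhibitors and 8.73 with LY294002. The T4 samples were highest and close together, the protease inhibitors intermediate and LY294002 the lowest, 3.59-fold under the nearer protease inhibitor. FADS1, a polyunsaturated fatty acid desaturase, read 8.51 and 8.60 in S1, 9.07, 8.83 and 10.16 in T4, 9.24 and 9.19 with the protease inhibitors and 7.82 with LY294002. For SREBF1, the gene of the lipogenic factor SREBP-1, the values were 7.94 and 7.95 in S1, 8.43, 8.64 and 8.96 in T4, 8.89 and 8.70 with the protease inhibitors and 7.57 with LY294002. LY294002 was below the S1 samples for all 3 of these genes. Of 11 fatty acid synthesis genes, 2 passed the fold (SCD and FADS1), 9 were lower by at least 0.5 and the list median difference was -0.78, when 0.577% and 2.84% of all genes were that low. The other 7 of the 9 were ACACA (-0.74), ACSL1 (-0.71), ELOVL6 (-0.71), FADS2 (-0.68), the fatty acid synthase FASN (-0.63), ACLY (-0.60) and ME1 (-0.51).

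Cholesterol synthesis was similar. DHCR7, which catalyses the last step of cholesterol synthesis, read 7.98 and 7.88 in S1, 9.42, 9.79 and 10.06 in T4, 9.13 and 9.13 with the protease inhibitors and 8.01 with LY294002. MSMO1, a sterol C4-methyl oxidase, read 10.03 and 10.05 in S1, 11.95, 11.90 and 11.73 in T4, 11.25 and 11.44 with the protease inhibitors and 10.22 with LY294002. In both genes LY294002 was near the S1 samples, and the protease inhibitors were nearer to T4. Of 18 cholesterol genes, 3 passed the fold (SREBF1, DHCR7 and MSMO1), 10 were lower by at least 0.5, 15 lay below both protease inhibitors and the median difference was -0.65. Over all genes 0.577%, 2.84% and 39.8% reached these marks. The rest of the 10 were INSIG1 (-0.90), IDI1 (-0.87), CYP51A1 (-0.83), LSS (-0.78), HMGCS1 (-0.73), SQLE (-0.67) and EBP (-0.59). INSIG1, the sterol-regulated anchor of SREBP processing, read 8.14 and 8.28 in S1, 10.16, 10.12 and 10.36 in T4, 9.73 and 9.82 with the protease inhibitors and 8.84 with LY294002. LY294002 sat between S1 and the other agents for INSIG1. ABHD5, a coactivator of triglyceride breakdown (-1.02), and STAR, which moves cholesterol into mitochondria (-1.14), were listed as well.

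Aldo-keto reductases showed some of the largest gaps. AKR1C1, a reductase of steroids and other carbonyls, read 12.36 and 12.03 in S1, 12.09, 11.87 and 13.17 in T4, 11.28 and 11.44 with the protease inhibitors and 9.05 with LY294002. AKR1C2 read 12.07 and 11.61 in S1, 11.59, 11.38 and 12.51 in T4, 11.002 and 11.338 with the protease inhibitors and 9.64 with LY294002. These genes are near-identical copies whose probe sets can hybridise to each other's transcripts, so they are reported as uncertain and may be 1 signal. All reverted samples were below T4, and LY294002 by the most. Of 27 NRF2 and detoxification genes, these 2 passed the fold and 7 were lower by at least 0.5, against 0.577% and 2.84% of all genes. Among the 7 were GSTA4 (-0.89), the third copy AKR1C3 (-0.85), the transporter ABCC2 (-0.76) and the cystine carrier SLC7A11 (-0.73). The list median was -0.07. In 9 members LY294002 lay above both protease inhibitors and in 14 below both, against 38.9% and 39.8% of all genes.

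Genes with the largest gaps otherwise encoded secreted, membrane and metabolic proteins. PDZK1IP1, a small membrane protein that binds PDZ domains, read 7.30 and 7.15 in S1, 7.96, 8.45 and 7.06 in T4, 9.89 and 9.95 with the protease inhibitors and 7.36 with LY294002. The protease inhibitor samples were above every other sample for this gene. GPNMB, a transmembrane glycoprotein, read 12.68 and 12.91 in S1, 9.36, 9.78 and 7.10 in T4, 11.82 and 11.90 with the protease inhibitors and 9.31 with LY294002. For GPNMB the protease inhibitors lay near S1 and LY294002 among the widely spread T4 samples. SFTPD, the collectin surfactant protein D, read 9.60 and 9.63 with the protease inhibitors and 7.37 with LY294002, against 7.22 to 8.41 in T4 and 7.53 to 7.57 in S1. SERPINB13, an intracellular protease inhibitor, read 6.84 and 6.87 in S1, 6.88, 7.20 and 6.86 in T4, 8.90 and 9.10 with the protease inhibitors and 6.78 with LY294002. Its level stood out only with the protease inhibitors in this table, since LY294002, S1 and T4 samples 1 and 3 all lay under 6.90.

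BBOX1, which makes carnitine (gap -2.05), and the matrix gene ECM2 (-1.84) varied over 2.56 and 1.96 log2 units within T4, so their gaps were inside that range. IGFBP7, a secreted IGF-binding protein, read 10.35 and 11.01 in S1, 11.06, 10.81 and 10.30 in T4, 10.77 and 11.16 with the protease inhibitors and 8.97 with LY294002. LY294002 alone was low for IGFBP7. CHI3L2, a chitinase-like protein (-1.58), stood above T4 with the protease inhibitors, at 8.56 and 8.86 against 7.37 or less. SLC39A8, a zinc importer (-1.37), the proteoglycan SPOCK1 (-1.16), the carbonic anhydrase CA12 (-1.05) and the mTORC1 regulator MIOS (-1.06) had gaps smaller than the T4 range. TM4SF1, a membrane protein (-1.21), the signalling adaptor STAP2 (-1.26), GSAP (-1.12), the clotting factor F12 (-1.09), the cyclin CCNA1 (-1.05) and the inositol phosphatase INPP1 (-1.04) complete the lower genes. CCNA1 with LY294002 stayed among the T4 samples, at 10.08 against 9.57 to 10.26 in T4 and 7.62 to 7.96 in S1.

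**Figure D3:**
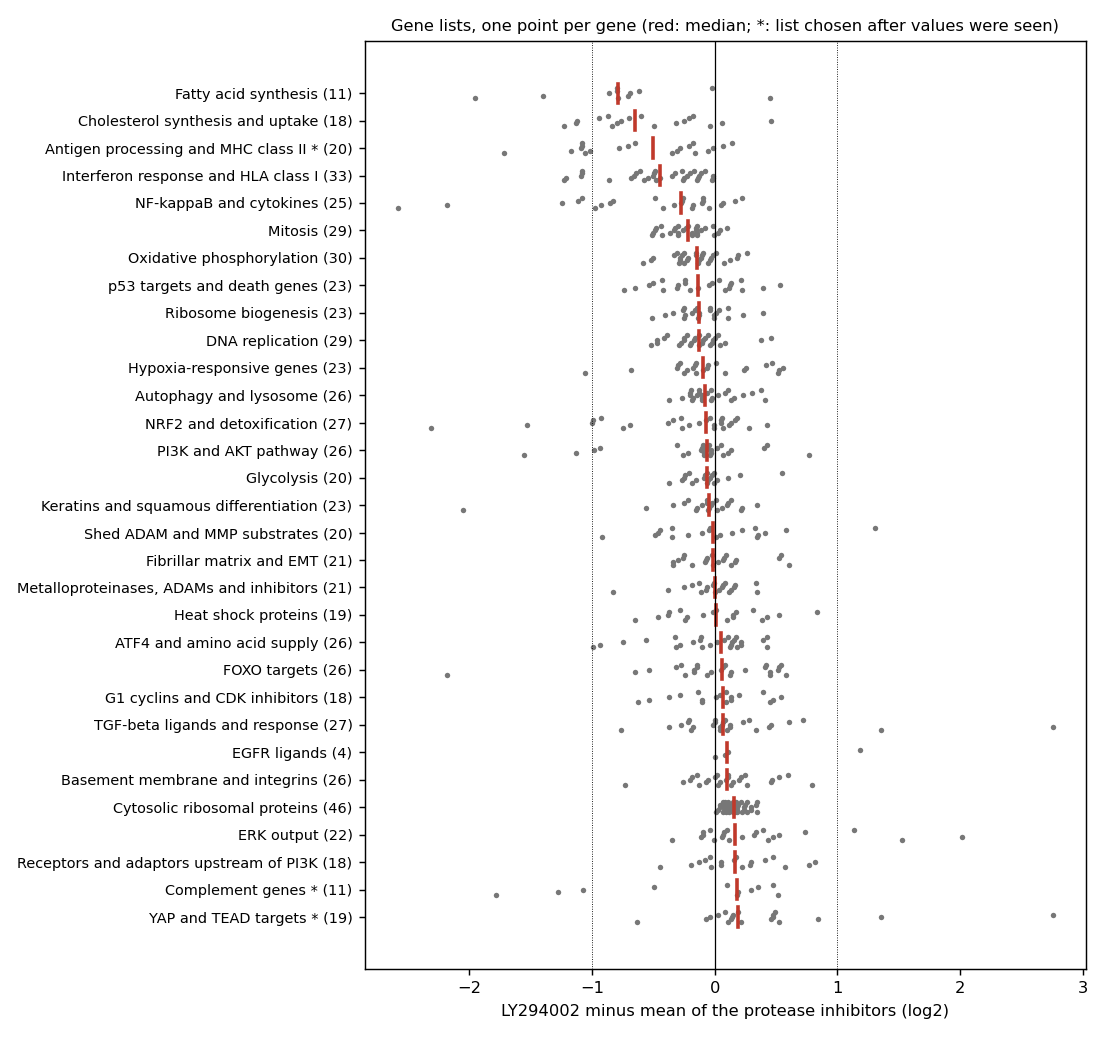
LY294002 minus the mean of the protease inhibitors (horizontal axis, log2) for each gene (grey points) of the gene lists (rows, number of genes used in brackets), with the list median in red; lists with a star were chosen after values were seen. The fatty acid and cholesterol lists have medians of -0.78 and -0.65 and the interferon list -0.44, while most other lists centre near 0 with few genes past the dotted lines at 1 log2 unit.

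The higher genes were led by CCN2, a matricellular protein gene known as a target of YAP, TEAD and TGF-beta signalling. CCN2 read 6.88 and 6.95 in S1, 9.66, 9.64 and 7.81 in T4, 7.64 and 7.66 with the protease inhibitors and 10.40 with LY294002. LY294002 was the highest sample, 6.70-fold above the nearer protease inhibitor, and both protease inhibitors were below every T4 sample. CCN1, its relative, read 8.05 and 7.90 in S1, 9.89, 9.51 and 8.43 in T4, 8.15 and 7.90 with the protease inhibitors and 9.38 with LY294002. For CCN1, LY294002 lay within the T4 range and the protease inhibitors at the S1 level. Of 19 YAP and TEAD targets, on a list chosen after values were seen, these 2 passed the fold, against 0.127% of all genes. AMOTL2 followed at 0.75. LY294002 was above both protease inhibitors in 14 of the 19 and below both in 1, against 38.9% and 39.8% of all genes. AMOTL2 itself read 8.56, 8.65 and 8.60 in T4, 8.996 and 8.807 with the protease inhibitors and 9.75 with LY294002. In a TGF-beta list, CCN1 and CCN2 were the only members past the fold among 27 genes, against 0.127% of all genes. The list median difference was 0.07.

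EGR1 and DUSP6, which ERK signalling induces, and the EGFR ligand gene TGFA were higher with LY294002 than with the protease inhibitors, but not above the highest T4 sample. EGR1, an immediate-early transcription factor, read 8.69 and 8.07 in S1, 11.10, 11.22 and 9.10 in T4, 9.77 and 8.39 with the protease inhibitors and 11.10 with LY294002. The protease inhibitors differed from each other by 1.38 for EGR1, more than the gap of 1.33. DUSP6, the phosphatase that ERK induces against itself, read 7.25 and 7.12 in S1, 11.51, 11.69 and 10.85 in T4, 8.19 and 7.58 with the protease inhibitors and 9.41 with LY294002. DUSP6 under LY294002 was thus between T4 and the protease inhibitors and outside both. TGFA, an EGFR ligand that ADAM17 releases, read 7.57 and 7.76 in S1, 9.02, 8.37 and 9.81 in T4, 7.42 and 7.26 with the protease inhibitors and 8.53 with LY294002. TGFA was the only one of 4 EGFR ligands used past the fold, against 0.127% of all genes. Of 22 ERK output genes, 2 passed the fold (EGR1 and DUSP6) and 4 were higher by at least 0.5, against 0.127% and 1.28% of all genes. None was lower by 0.5. LY294002 was above both protease inhibitors in 12 of the 22 and below both in 4, against 38.9% and 39.8% of all genes. It lay between them in 6. IER2 (0.96) and DUSP5 (0.71) were the other members past 0.5. IER2 read 11.54, 11.37 and 10.65 in T4, 8.87 and 8.51 with the protease inhibitors and 9.83 with LY294002, so it too lay between.

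RGCC and CRIP2 had the next largest gaps. RGCC, a cell-cycle regulator gene, read 10.15 and 10.52 in S1, 8.06, 8.43 and 7.06 in T4, 7.96 and 8.36 with the protease inhibitors and 10.93 with LY294002. CRIP2, a LIM-domain protein gene, read 8.98 and 8.99 in S1, 8.12, 8.08 and 7.36 in T4, 7.30 and 7.34 with the protease inhibitors and 9.32 with LY294002. In both genes LY294002 was above S1 and apart from all T4 and protease inhibitor samples. DCXR, a carbonyl reductase gene, read 10.26 and 10.54 in S1, 9.04, 9.05 and 9.21 in T4, 9.75 and 9.88 with the protease inhibitors and 10.99 with LY294002. CALHM2, a member of a channel family, read 8.88 and 8.90 in S1, 7.75, 7.69 and 7.83 in T4, 7.91 and 7.73 with the protease inhibitors and 8.91 with LY294002. CALHM2 was at the S1 level with LY294002, while its protease inhibitor samples stayed near T4. KRT9, a keratin of palm and sole skin (9.65 with LY294002, 8.11 and 8.13 with the protease inhibitors, 7.61 or less in T4 and S1), and RIPK4, a kinase of epidermal differentiation (9.85, against 8.96 or less in the other samples of the table), were the remaining higher genes.

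Most transcripts of the targeted pathway had gaps under 0.5 log2 units. In a PI3K and AKT list of 26 genes used, 2 passed the fold, both lower (SGK1 and PIK3R3), against 0.577% of all genes. Of the 26, 4 were lower and 1 higher by at least 0.5, against 2.84% and 1.28% of all genes. LY294002 lay below both protease inhibitors in 15 and above both in 6, against 39.8% and 38.9% of all genes. SGK1, a kinase related to AKT and activated through PI3K, read 9.25 and 8.80 in S1, 9.95, 9.77 and 8.37 in T4, 9.36 and 9.34 with the protease inhibitors and 7.80 with LY294002. LY294002 was lowest of the 8 for SGK1, and its gap of -1.54 was just within the T4 range of 1.58. PIK3R3, a regulatory subunit of PI3K, read 8.89 and 8.95 in S1, 8.13, 8.51 and 7.78 in T4, 9.89 and 9.84 with the protease inhibitors and 8.73 with LY294002. It was highest with the protease inhibitors, and LY294002 lay above T4. The mTORC1 inhibitors DDIT4 (-0.84) and TSC2 (-0.79) were lower, and the regulatory subunit PIK3R1 higher (0.52, with a T4 range of 2.86). AKT1 (0.10), AKT2 (-0.09), MTOR (-0.05), IRS1 (0.12) and PIK3CB (between the protease inhibitors) showed small gaps. PIK3CA had no probe set assigned to 1 gene and is not analysed here.

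Of 18 receptors and adaptors upstream of PI3K, none passed the fold. Of these, 3 were higher by at least 0.5 and none lower, against 1.28% and 2.84% of all genes. EGFR read 11.68 and 11.23 in S1, 12.87, 13.05 and 11.62 in T4, 12.45 and 12.40 with the protease inhibitors and 13.20 with LY294002, a gap of 0.75. EGFR was thus highest with LY294002, and T4 sample 3 was 1.43 below T4 sample 2. IGF1R (0.65) and FGFR1 (0.56) were the others, and IRS2 had a gap of 0.30. Of 26 FOXO target genes, BCL6 was higher by 0.53, SOD2 was lower by 1.78 log2 units and 13 were above and 11 below both protease inhibitors, when 38.9% and 39.8% of all genes were. CDKN1B, the CDK inhibitor p27, had a gap of 0.34, CCND1 (cyclin D1) 0.47, FOXO1 -0.26 and FOXO3 -0.12.

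Metalloproteinase genes and their inhibitors did not pass the fold in any of 21 genes used, when 0.127% of all genes were higher and 0.577% lower. MMP28 (-0.77) was the only one past 0.5, a size that 1.28% of all genes reached as higher and 2.84% as lower. MMP14 (0.06), ADAM17 (-0.14), ADAM10 (0.31), TIMP1 (0.08), TIMP2 (-0.10) and TIMP3 (0.33) had smaller gaps. MMP2 lay between the protease inhibitors. Of 20 membrane proteins known to be shed by these proteases, CD44 was higher by 0.51 and CDH1 (E-cadherin) lower, with a gap of -0.84. CDH1 read 10.67 and 10.53 in S1, 9.76, 10.20 and 9.75 in T4, 10.80 and 10.96 with the protease inhibitors and 9.96 with LY294002. Protease inhibitor samples were thus above S1 for CDH1 and LY294002 within the T4 range. Among 26 basement membrane and integrin genes, ITGA3 (0.77) and ITGB6 (-0.53) were past 0.5, and ITGB1 had a gap of 0.07. For this list and the shed proteins the shares of all genes past 0.5 were again 1.28% and 2.84%.

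Other epithelial markers were close between the agents, with KRT5 at 13.53 and 13.59 with the protease inhibitors and 13.52 with LY294002. The median of the 7 measured of 8 epithelial markers, CDH1 included, was 10.6 and 10.4 with the protease inhibitors and 9.96 with LY294002. In S1 and T4 it was 9.75 to 10.7. The LY294002 median equals the CDH1 value of 9.96, so it does not describe the other markers alone. The 3 endothelial markers were between 6.57 and 6.93 in all 8 samples.

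Several lists held no gene past 0.5 in either direction: glycolysis (20 genes), ribosome biogenesis (23), autophagy and lysosome (26), mitosis (29), oxidative phosphorylation (30) and cytosolic ribosomal proteins (46). Over all genes 1.28% were higher and 2.84% lower by 0.5, so lists of this size would hold few. Small offsets shared by most members were present in some of these lists. LY294002 was below both protease inhibitors in 24 of 29 mitosis genes, against 39.8% of all genes, with a median difference of -0.22 and the largest for TPX2 (-0.51), a spindle assembly factor, and CCNB1 (-0.50), cyclin B1. It was above both in 43 of 46 ribosomal protein genes, against 38.9% of all genes, with a median difference of 0.16. DNA replication (29 genes), fibrillar matrix and EMT (21), ATF4 targets (26), G1 regulators (18), p53 targets (23) and heat shock genes (19) had no member past 1 log2 unit. The largest gaps there were PSAT1 (-0.95), a serine synthesis enzyme, and HSPA1B (0.84), an inducible chaperone. The hypoxia list (23) and the list of keratin and squamous differentiation genes (23) had 1 each, both lower, CA12 and S100A8. KRT9, a listed higher gene, was not in the latter list. Over all genes 0.127% were higher and 0.577% lower by the fold. Over all 28 lists not chosen after values were seen, 634 genes were used. Of these, 5 were higher and 18 lower by the fold, against 0.127% and 0.577% of all genes. The other 6 higher and 32 lower genes belonged to none of these lists.

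The threshold cut through a continuous range. On the higher side the nearest genes inside it were CALHM2 (1.005), RIPK4 and DCXR (1.10 each), TGFA (1.10) and DUSP6 (1.23), and the nearest outside were IER2 and OSTF1 (0.96 each), TUBB2A (0.95), ST6GALNAC2 (0.94) and HSD17B11 (0.87). On the lower side CASP1 (-1.003), PSMB10 (-1.01), ABHD5 (-1.02), MSMO1 (-1.03) and RTP4 (-1.04) were inside, and GLIPR1 and KYNU (-0.99 each), CLCA2 and PSME2 (-0.98 each) and CHN1 (-0.96) outside.

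Other probe sets of the listed genes, which the rule did not use but which come from the same arrays, gave the same side in most cases. Of the lower genes, 20 had 44 other probe sets, of which 41 lay below both protease inhibitors and 11, in 9 genes, by at least 1 log2 unit. Of the higher genes, 5 had 7, of which all 7 lay above and 4 by at least 1. Over 6049 such probe sets of all genes, 36.2% lay below and 38.1% above, and 0.231% and 0.0992% by at least 1. Second probe sets past the fold included FADS1 (-1.36 and -1.33), SCD (-1.16 and -1.28), IGFBP7 (-1.76), SOD2 (-1.18), EGR1 (1.26), DUSP6 (1.35) and CCN1 (1.41). For CFB the other probe set was on the opposite side by 0.05, at a level near 7. For CA12 and F12, 1 dim probe set each lay between the protease inhibitors.

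The agents of the second table give context only, since it is not known whether the tables were normalized together, and values are set across them as levels. That table holds S1 sample 3 and T4 reverted with TNF protease inhibitor-2, PD98059 (a MAPK pathway inhibitor), dominant-negative Rap1, Tyrphostin AG 1478 and mAb225 (EGFR inhibitors) and AIIB2 (a beta1-integrin inhibitor). LY294002 was above all 6 of these agents in 11 of 11 higher genes and below all 6 in 45 of 50 lower genes. Over all genes the shares were 19.6% and 21.5%. The genes were listed for this same LY294002 value, so the counts are a description and no sign of a difference from these agents. The exceptions were C1S, AKR1C2, CXCL1, CCNA1 and ABHD5. CCN2 lay between 6.82 and 7.11 with these 6 agents, under its 7.64 and 7.66 with the protease inhibitors of the first table. SCD ranged from 10.28 to 11.01 and SREBF1 from 9.02 to 9.58, against 8.73 and 7.57 with LY294002. Against TNF protease inhibitor-2, LY294002 was lower by at least 1 log2 unit in 39 of 50 genes, against PD98059 in 27 and against AG 1478 in 22. In the same order, 1.38%, 1.71% and 1.57% of all genes were that much lower. S1 sample 3 did not match the other S1 samples for several of these genes, for example SCD at 12.07 and SOD2 at 7.72.

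**Figure D4:**
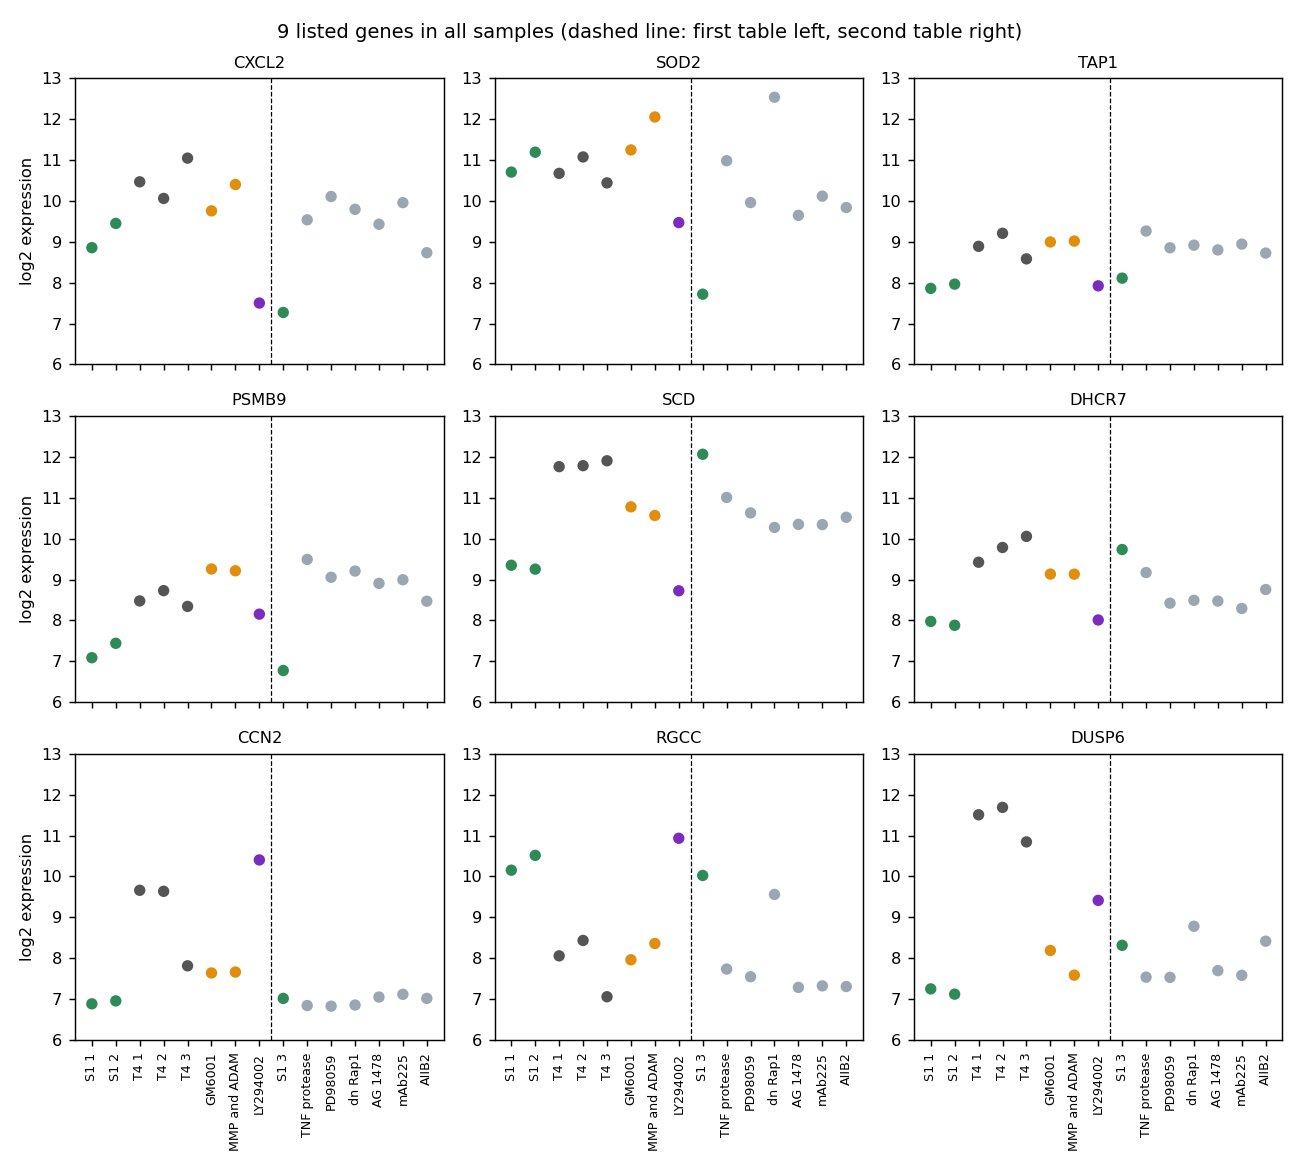
log2 expression (vertical axis) of 9 listed genes in 15 samples, with the first table left and the second table right of the dashed line; green is S1, dark grey T4, orange the protease inhibitors, purple LY294002 and light grey the other agents. LY294002 is the lowest T4-derived sample for CXCL2, SOD2, TAP1, PSMB9, SCD and DHCR7 and the highest reverted sample for CCN2, RGCC and DUSP6.

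T4 was compared with S1 in the first table to place the listed genes between the lines, using no treated sample (limma, 3 T4 against 2 S1 samples, adjusted over 8671 genes). Of all genes, 11.2% were higher and 10.4% lower in T4. Of the 50 lower genes, 16 (32.0%) were higher in T4, 6 (12.0%) lower and 28 not called. SCD was higher in T4 by 2.52 ± 0.10 (SE; limma adjusted p = 0.00049), DHCR7 by 1.83 ± 0.20 (0.0062), MSMO1 by 1.82 ± 0.10 (0.00166), IL32 by 2.10 ± 0.21 (0.0051) and CD74 by 1.26 ± 0.14 (0.00719). TAP1 was higher by 0.98 ± 0.20 (limma adjusted p = 0.0253), PSMB9 by 1.25 ± 0.17 (0.0100) and CXCL2 by 1.37 ± 0.33 (0.0425). S100A8, SLC39A8, STAP2, CYLD, SREBF1, GSAP, CCNA1 and CASP1 were the other lower genes called higher in T4. GPNMB was lower in T4 (-4.04 ± 0.82, limma adjusted p = 0.0263), and SERPINA3, ABHD5, TM4SF1, MIOS and C1S were lower too.

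Of the 11 higher genes, DUSP6 was higher in T4 by 4.17 ± 0.26 (SE; limma adjusted p = 0.00207), while RGCC (-2.49 ± 0.42, 0.0169), CRIP2 (-1.13 ± 0.25, 0.0339), DCXR (-1.30 ± 0.12, 0.00471) and CALHM2 (-1.13 ± 0.09, 0.00315) were lower. CCN2 (2.12 ± 0.60, limma adjusted p = 0.0616) and EGR1 (2.10 ± 0.69, 0.0897) did not pass. Without T4 sample 3, 26 of the 50 lower genes were called higher and 12 lower in T4, and 6 of the 11 higher genes were called higher and 4 lower, when 2010 and 1684 of all genes were called. The calls also rested on other samples: without S1 sample 1, 3 of the 50 were called higher and 0 lower, without S1 sample 2, 1 and 0, and without T4 sample 1, 9 and 3, when 47 and 67, 14 and 22, and 341 and 300 of all genes were called. LY294002 was nearer to the S1 mean than to the T4 mean in 32 of 50 lower genes, and the mean of the protease inhibitors in 13 of 50. In the higher genes the counts were 5 of 11 and 7 of 11. Over all genes the shares were 46.7% for LY294002 and 44.1% for the protease inhibitors. The counts use the values that chose the genes. They are given as a description, and their distance from these shares is no result about the agents.

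**Figure D5:**
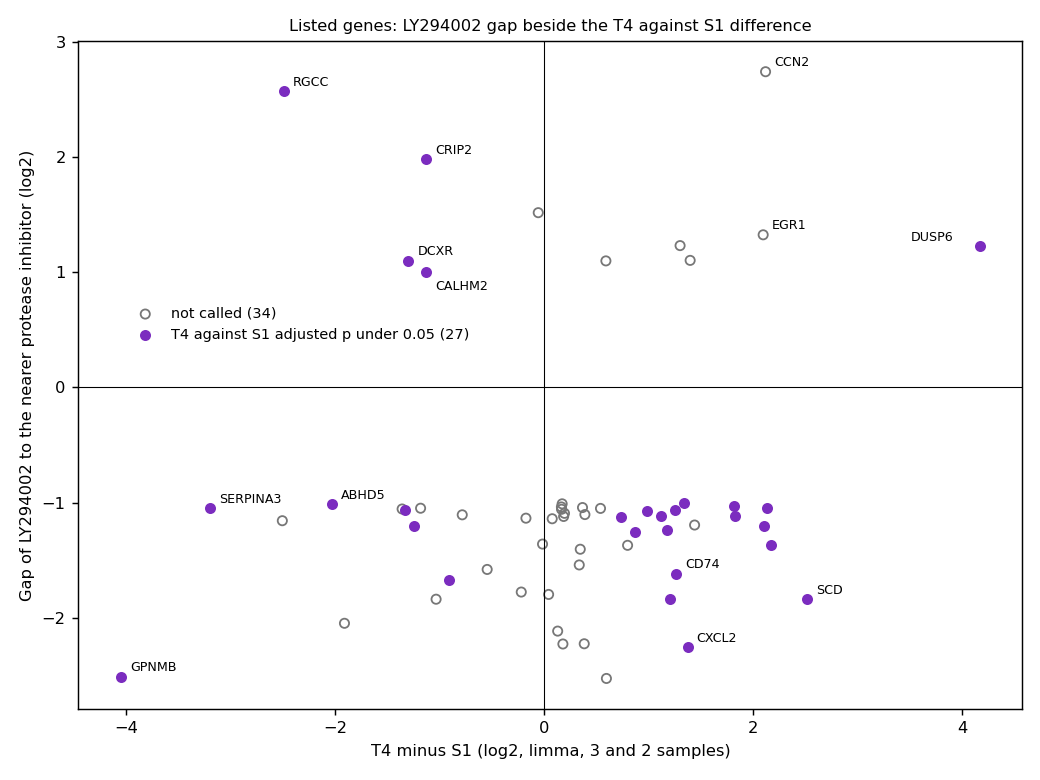
Gap of LY294002 to the nearer protease inhibitor (vertical axis, log2) against the T4 minus S1 difference (horizontal axis, log2, limma, 3 T4 and 2 S1 samples) for the 61 listed genes; filled points passed an adjusted p of 0.05. No point lies between -1 and 1 on the vertical axis because of the rule; 16 lower genes are filled on the right and 6 on the left, and 4 of the 5 filled higher genes are on the left.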

How the data were processed

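Each of 2 deposited tables holds log2 values, judged from their range, 1 per probe set and sample. How the authors summarised and normalized the arrays is not given in the sources used here, and precision is limited by the small number of arrays. Cells were grown in 3D lrECM and RNA was taken with Trizol, per the labels' protocols. Of 22215 probe sets, 18421 were assigned to 1 gene, 529 to several, 3077 to none here, and 188 differently by the annotations of the array types. Symbols were updated for 18411 of them through Entrez numbers. For each of 11562 genes the probe set with the largest mean over the 15 samples was kept. Dropping the dimmest 25% of genes left 8671. The 2891 dropped held 0 genes past the fold in either direction.

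The gap is the signed distance from LY294002 to the nearer protease inhibitor, 0 where LY294002 lies between them. For T4 against S1 the test was limma (version 3.58.1, R 4.3.3; lmFit and eBayes, 2-sided, Benjamini-Hochberg over 8671 genes, threshold 0.05), after the script was tested on simulated data. Nothing says that samples of a line were separate cultures, so p-values reflect sample-to-sample spread that may be technical. Tables were made with Python 3.11.15 and pandas 2.3.3. Alternatives were other probe set rules, normalizations, filters and folds, leaving out each sample, and the replicate number as a block.

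Named genes are the listed genes, the members with the largest gaps of each gene list, the 5 genes on either side of each threshold and a set of PI3K, FOXO and metalloproteinase genes. List members with gaps between 0.5 and 1, and other genes named only for their list, were named after their values were seen. The comparison and the gene lists were chosen with earlier results of these data known. The lists of complement, antigen-processing and YAP and TEAD genes, and the NF-kappaB, ISRE, TEAD and sterol motifs, were added after the listed genes were seen.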

Additional observations from a re-analysis of the deposited data

Results flagged for a closer look

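For 13 listed genes LY294002 lay on one side of all T4 samples and both protease inhibitors on the other side. In 11 of them LY294002 was below T4 and the protease inhibitors above: the gap of LY294002 to the nearer protease inhibitor was -2.12 for SERPINB13, -1.78 for SOD2, -1.62 for CD74, -1.21 for TM4SF1, -1.14 for STAR, -1.12 for ERAP2, -1.06 for PSMB9, -1.06 for PSMB8, -1.04 for INPP1, -1.02 for ABHD5 and -1.01 for PSMB10. In CRIP2 (1.98) and CCN2 (2.74) LY294002 was above T4 and the protease inhibitors below. With 1 sample per agent the difference was not tested. The count rests on T4 sample 3: without it the 13 genes still qualify and others join them, among them PDZK1IP1 and SFTPD. For CRIP2 the protease inhibitors (7.30 and 7.34) were barely below T4 sample 3 (7.36). For SERPINB13 LY294002 (6.78) was barely below it (6.86).

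The distance from T4 was not shared evenly between the agents. Against the T4 mean, SERPINB13 was -0.20 with LY294002 and 1.92 and 2.12 with the protease inhibitors, and STAR was -0.21 against 0.99 and 0.93. SOD2 was -1.26 with LY294002 and 0.52 and 1.32 with the protease inhibitors, and CD74 -1.06 against 0.56 and 0.76. CCN2 was 1.37 with LY294002 and -1.40 and -1.38 with the protease inhibitors, and CRIP2 1.47 against -0.56 and -0.52.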

How the results depend on the processing

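The counts of 11 higher and 50 lower genes moved by less than 1.5 times under other probe set rules, normalizations and filters, with 10 to 13 higher and 38 to 49 lower genes in all but the unfiltered table, which gave 11 and 50. Against the mean of the protease inhibitors they were 15 and 63. Quantile normalization called 11 of the 11 and 48 of the 50 again. A fold of 1.5 log2 units left 4 and 16, and 0.5 gave 111 and 246. Leaving out either protease inhibitor gave 13 to 20 higher and 57 to 77 lower genes, and 6 to 7 higher and 19 to 30 lower members of all lists together (30 without GM6001). No gap past the fold changed sign among the named genes checked, and smaller gaps were not checked for a change of sign. The check left out STAP2, CYLD, TM4SF1, IL32, SPOCK1, STAR, ERAP2, GSAP, ZC3H12A, F12, MIOS, C1R, CFB, SERPINA3, CCNA1 and INPP1. Over the named genes checked, 50 values moved by more than the spread of the T4 samples and 652 did not.

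T4 against S1 depended on each sample: leaving 1 out gave 14 to 2010 genes higher and 22 to 1684 lower in T4, with 1 to 26 and 0 to 12 of the lower genes and 0 to 6 and 0 to 4 of the higher genes; where S1 kept 1 sample, it was assumed to vary like T4. Deviations of same-numbered S1 and T4 samples correlated by -0.04 and 0.04. With only 2 S1 samples, whose deviations mirror each other, these values cannot show whether same-numbered samples were paired. With the replicate number as a block, 1979 genes were higher and 1638 lower in T4, with 26 and 14 of the lower genes and 6 and 4 of the higher genes. S1 has no sample 3 in the first table, so this block took T4 sample 3 out of the comparison. The counts are therefore close to those without T4 sample 3 (2010 and 1684). The mean of all probe sets and the fit over 15 samples with the table as a block each called 2 of the higher genes higher in T4. The cause of the other shifts was not tested.

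LY294002 and the protease inhibitors have 1 sample each, with doses and times unknown, so an effect of the agent and of that culture or array cannot be told apart. Without detection calls, gaps of dim genes such as SERPINB13, IL32 and CXCL1 have no known floor.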

Other observations

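Of 3794 probe sets assigned to no single gene, 4 were higher and 12 lower than both protease inhibitors by at least 1 log2 unit with LY294002, and they were not analysed by gene.

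Each agent was also set against T4 alone. LY294002 lay at least 1 log2 unit above all T4 samples in 48 genes and below all of them in 151, GM6001 in 54 and 109, and the MMP and ADAM inhibitor in 57 and 128. Without T4 sample 3 these counts were 55 and 233, 59 and 182, and 69 and 218. The agents share the T4 samples, so these counts are not independent of each other.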
